A study of Mus musculus with 24 samples.

Results

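Gata3, Grhl1, Grhl2, Grhl3, Ovol1, Ovol2 and Prdm1 are 7 transcription factor genes of the epidermis, and their accessible chromatin was followed in mouse skin cells before and after wounding. Peaks of 8 deposited lists were merged into regions wherever they overlapped, and each region was given to its nearest protein-coding gene, up to 50 kb away (distance 0 inside the gene). The 7 genes held 61 of the 52791 regions with a gene. Grhl2 had 19 of them, Grhl3 and Prdm1 11 each, Gata3 9, Grhl1 5, Ovol1 4 and Ovol2 2. A region near a gene was not shown here to act on it.

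ATAC-seq, which reads open chromatin from the cuts of a transposase, was run on 24 samples of sorted skin cells that form 8 groups with 1 list each, named below by tissue or by wound (partial and full wound for short) and day. All mice were of a CD1 x C57BL/6J cross, with no age in the labels. Hair follicle stem cells came from unwounded Krt19-CreER/R26-YFP skin at day 0 (4 samples). Progeny of hair follicle stem cells came from partial-thickness wounds of Krt19-CreER/R26-YFP mice at day 3 with 3 samples, day 7 with 2 and day 80 with 3. Progeny of epidermal stem cells came from full-thickness wounds of Sox9-CreER/R26-YFP mice at day 7 with 3 samples and day 80 with 2. Epidermal stem cells came from unwounded Krt19-CreER/R26-YFP skin at day 80 with 3 samples and day 0 with 4. In such mice a Cre recombinase, activated by a drug and driven by the named gene, turns on a yellow fluorescent protein in the cells that express it and in their descendants. Krt19 and Sox9 both mark cells of the hair follicle, and the gates of the sort were not stated in the labels. The wound type, the Cre line and the labelled cell of origin of the progeny differ together, so they cannot be told apart. With 1 list per group there is no replicate error and no test between groups, and each difference below is the presence or absence of a deposited peak.

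GATA3, the GRHL proteins, the OVOL proteins and PRDM1 (also called Blimp1) are DNA-binding regulators of epidermal differentiation. GRHL1, GRHL2 and GRHL3 bind a shared DNA motif and control genes of cell junctions and the skin barrier, and GRHL3 is also known for its part in wound repair and neural tube closure. OVOL1 and OVOL2 are zinc finger repressors that help epithelial cells leave the cycle and keep their epithelial state. PRDM1 is a repressor that acts in terminal differentiation of skin cells and lymphocytes, and GATA3 acts in the inner root sheath of the hair follicle, in the upper epidermis and in T cells.

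The lists differed in length and in how much of the calls the authors kept, and both enter every count below. They held 29365 to 37214 peaks, and the lowest deposited −log10 p lay between 7.86 (day 80 epidermis) and 40.2 (day 7 partial wound). The median peak width was 460 bp in the day 80 full-thickness list and 641 to 987 bp in the others. The peak names of the day 0 epidermal list carry a control tag for day 7, so its day rests on the name of its file. Regions of 6 hair follicle stem cell markers numbered 33, 34 and 32 in the hair follicle and the day 3 and day 7 partial-thickness lists, and 12 to 17 in the other 5 lists. Regions of 6 basal epidermal markers numbered 25 for the hair follicle, 21 to 33 for the 5 wound lists, 25 for day 80 epidermis and 11 for day 0 epidermis. Of 10 T cell markers, Cd3g, Cd4 and Cd8a were among those with no region. The 6 with a region were Ptprc and Cd2 (6 regions each), Cd28 (3), Cd3e and Il7r (2 each) and Lck (1). Their regions numbered 1 in the hair follicle list, 12, 12 and 10 on days 3, 7 and 80 of the partial wound, 11 and 9 on days 7 and 80 of the full wound, and 11 and 8 in unwounded epidermis of days 80 and 0. Regions of the other marker lists numbered 1 in the hair follicle list and 2 to 4 in the others for 6 macrophage and Langerhans cell genes, 7 and 2 to 4 for 6 fibroblast genes, 15 and 8 to 11 for 5 melanocyte genes, 7 and 5 to 14 for 4 endothelial genes, 3 and 4 to 8 for 4 sebaceous genes, and 2 and 3 to 8 for 5 differentiating epidermal genes. Gata3 and Prdm1 are also used by T cells, and the part of such cells in their regions was not tested.

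The promoters below are shown because they separate the genes by where the chromatin at the start was accessible. Each is the 250 bases before a RefSeq gene start, in GRCm38.p6 (the assembly of mm10), written 5′ to 3′ on the strand of the gene. The Grhl3 stretch lies on the minus strand at chr4:135573633-135573882 and overlapped a peak in 3 of the 8 lists. Grhl1 has a RefSeq start on the plus strand after chr12:24572037-24572286, where every list had a peak, and another after chr12:24580469-24580718, where no list had one. The Prdm1 stretch lies on the minus strand at chr10:44458749-44458998 and overlapped a peak in all 8 lists. Capitals mark a match to the AP-1 motif TGANTCA.
Grhl3: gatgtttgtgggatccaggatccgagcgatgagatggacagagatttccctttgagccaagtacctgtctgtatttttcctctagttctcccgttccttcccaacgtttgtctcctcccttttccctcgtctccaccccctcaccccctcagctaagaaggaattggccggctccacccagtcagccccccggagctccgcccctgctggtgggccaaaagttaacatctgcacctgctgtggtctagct
Grhl1, first start: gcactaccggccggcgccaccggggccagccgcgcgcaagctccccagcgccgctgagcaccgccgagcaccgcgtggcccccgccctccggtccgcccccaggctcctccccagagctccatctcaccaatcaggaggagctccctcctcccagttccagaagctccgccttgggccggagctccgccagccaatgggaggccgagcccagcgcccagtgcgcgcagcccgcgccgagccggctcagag
Grhl1, second start: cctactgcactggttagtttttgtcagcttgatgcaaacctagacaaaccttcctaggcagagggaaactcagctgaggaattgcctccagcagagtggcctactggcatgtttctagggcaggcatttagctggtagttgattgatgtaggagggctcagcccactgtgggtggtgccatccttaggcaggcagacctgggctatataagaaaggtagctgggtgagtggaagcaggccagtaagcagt
Prdm1: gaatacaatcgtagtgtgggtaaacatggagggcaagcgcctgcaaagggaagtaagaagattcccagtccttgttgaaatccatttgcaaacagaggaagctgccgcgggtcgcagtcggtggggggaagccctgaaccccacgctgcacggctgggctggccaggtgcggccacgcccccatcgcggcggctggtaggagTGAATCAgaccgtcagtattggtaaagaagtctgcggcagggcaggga

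RefSeq promoter entries were matched for 5 of the 7 genes, 6 promoters in all, and Grhl2 and Ovol1 had no entry in the table. Each promoter was searched on both strands, from 250 bases before the start to 50 after it, for GRHL, GATA, AP-1, PRDM1, OVOL and p63 motifs. The 1 match was to the AP-1 letters TGANTCA, where N stands for any base. It read TGAATCA, at position 203 of the Prdm1 promoter, counted from its 5′ end. Among all 32851 promoters, 7.81% held the AP-1 motif. The other motifs had no match in these genes. The GRHL motif AACCGGTT was in 0.146% of all promoters, and its looser form AACNNGTT, which contains it, in 4.2%. For the GATA factors the letters searched were AGATAA, held by 11.2% of all promoters. The PRDM1 letters GAAAGT were held by 14.3% of promoters. The OVOL letters CCGTTA were found in 2.76%, and the p63 motif in 0.557%. A match is a run of letters and not evidence that a factor binds there, and the sequence of the peaks themselves was not analysed here. The Ovol2 promoter, on the minus strand at chr2:144331363-144331612, overlapped a peak in every list. The Gata3 promoter, on the minus strand at chr2:9878601-9878850, overlapped one in 7 lists, all but the hair follicle list. The hair follicle list had a peak close by, at chr2:9878947-9880429, inside the gene.

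Across the 7 genes, the hair follicle list held the fewest regions and the day 7 full-thickness list the most. The hair follicle list had 21 of the 61 regions (34.4%), against a presence of 46.8% among all regions with a gene. The partial-thickness lists had 36 at day 3 (59.0%, all regions 59%), 36 at day 7 (59.0%, all regions 56.8%) and 35 at day 80 (57.4%, all regions 54.5%). The full-thickness lists had 41 at day 7 (67.2%, all regions 61.2%) and 35 at day 80 (57.4%, all regions 53.1%). The epidermal lists had 30 at day 80 (49.2%, all regions 51.5%) and 26 at day 0 (42.6%, all regions 49.2%). The hair follicle list was also the shortest of the 8, and the day 7 full-thickness list the longest.

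**Figure D1:**
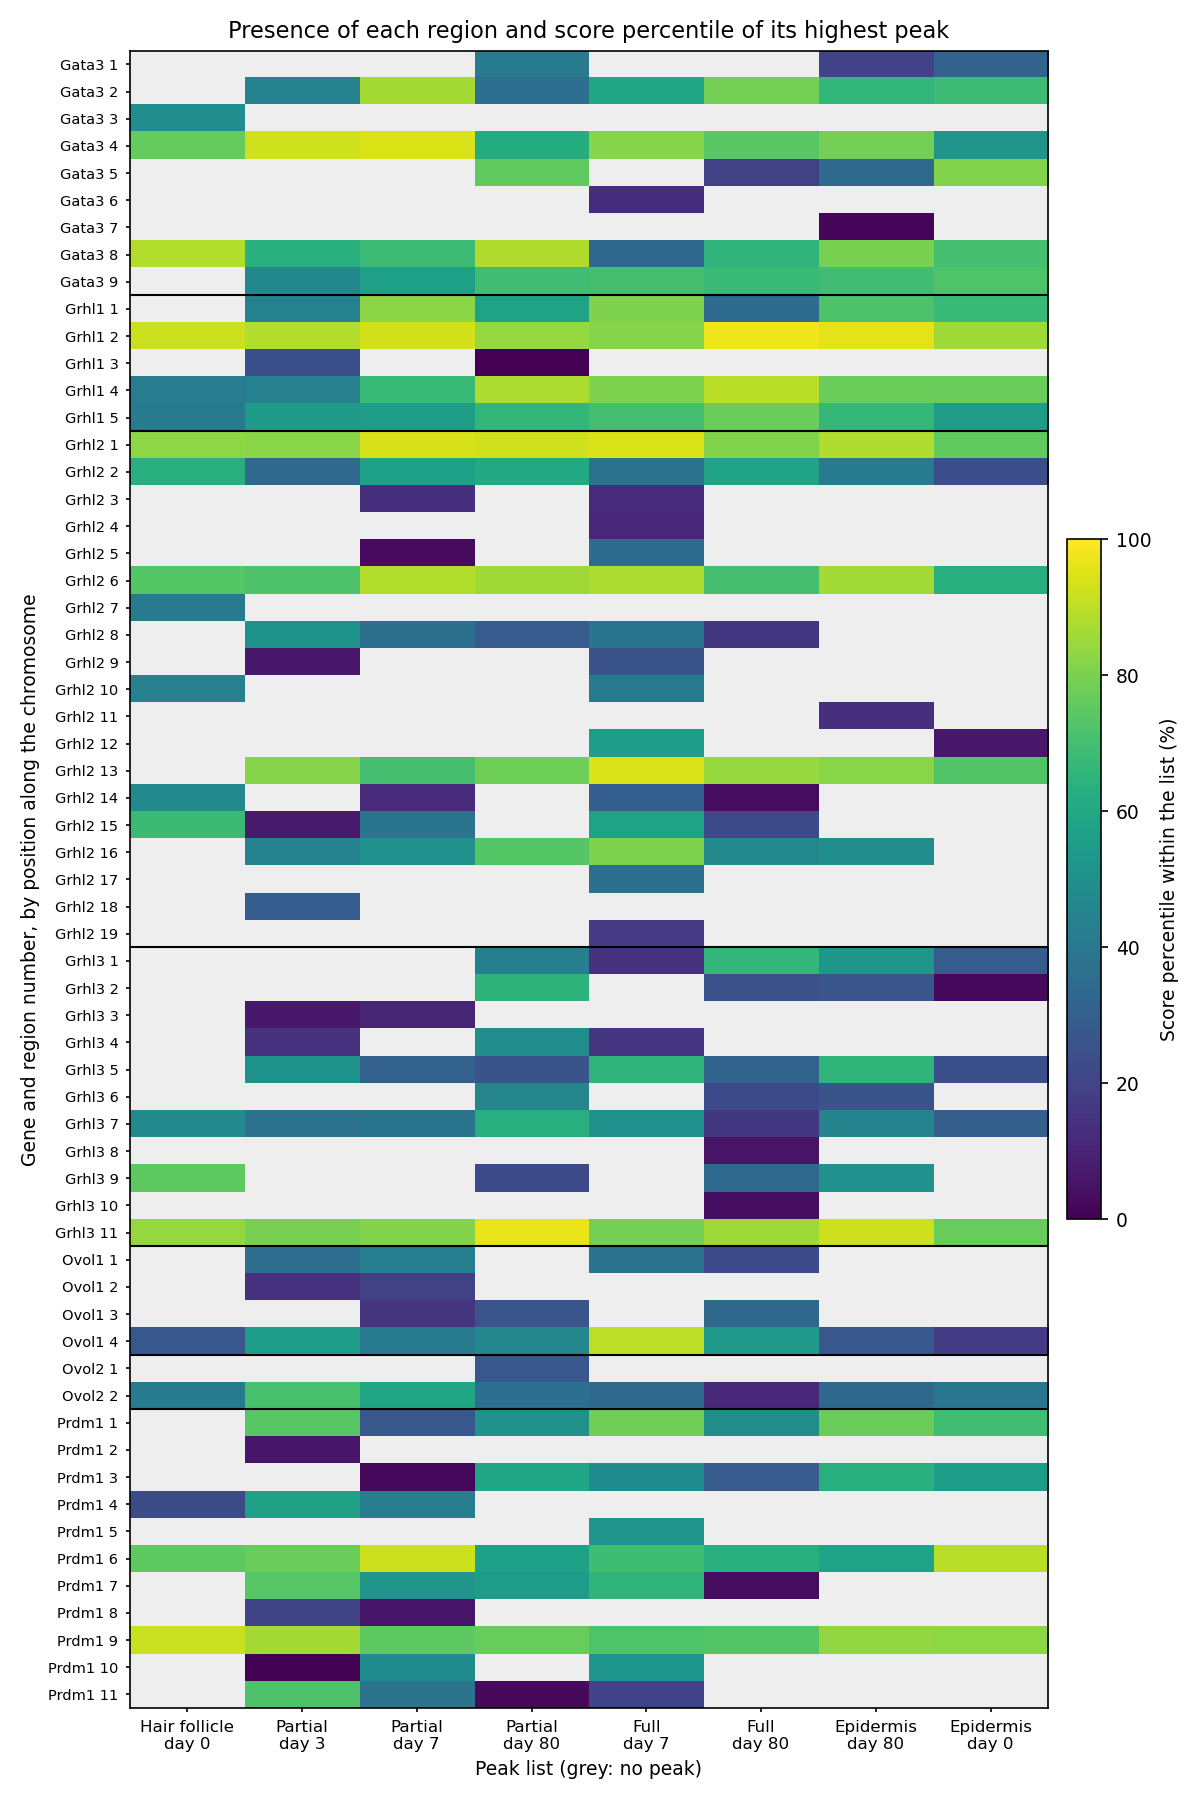
Each row is 1 of the 61 regions, numbered within its gene by position along the chromosome, and each column is a peak list. Colour gives the percentile of the region's highest peak by deposited score within that list, and grey means no peak. The 14 regions in all 8 lists include at least 1 of each gene, and the darkest cells, near 0%, are the weakest peaks of their list.

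A common core of regions was present throughout. All 8 lists held 14 regions (23.0%, exact 95% Clopper-Pearson interval 13.2 to 35.5%, against 24.4% of all regions): 3 each of Grhl1 and Grhl2, 2 each of Gata3, Grhl3 and Prdm1, and 1 each of Ovol1 and Ovol2. A further 14 regions were in 1 list alone (23.0%, against 24.9% of all regions), and the median region was in 4 lists in both sets. Intervals here cover counting error only and treat regions as independent, although regions of 1 gene are neighbours. Both shares lay near those of all regions.

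**Figure D2:**
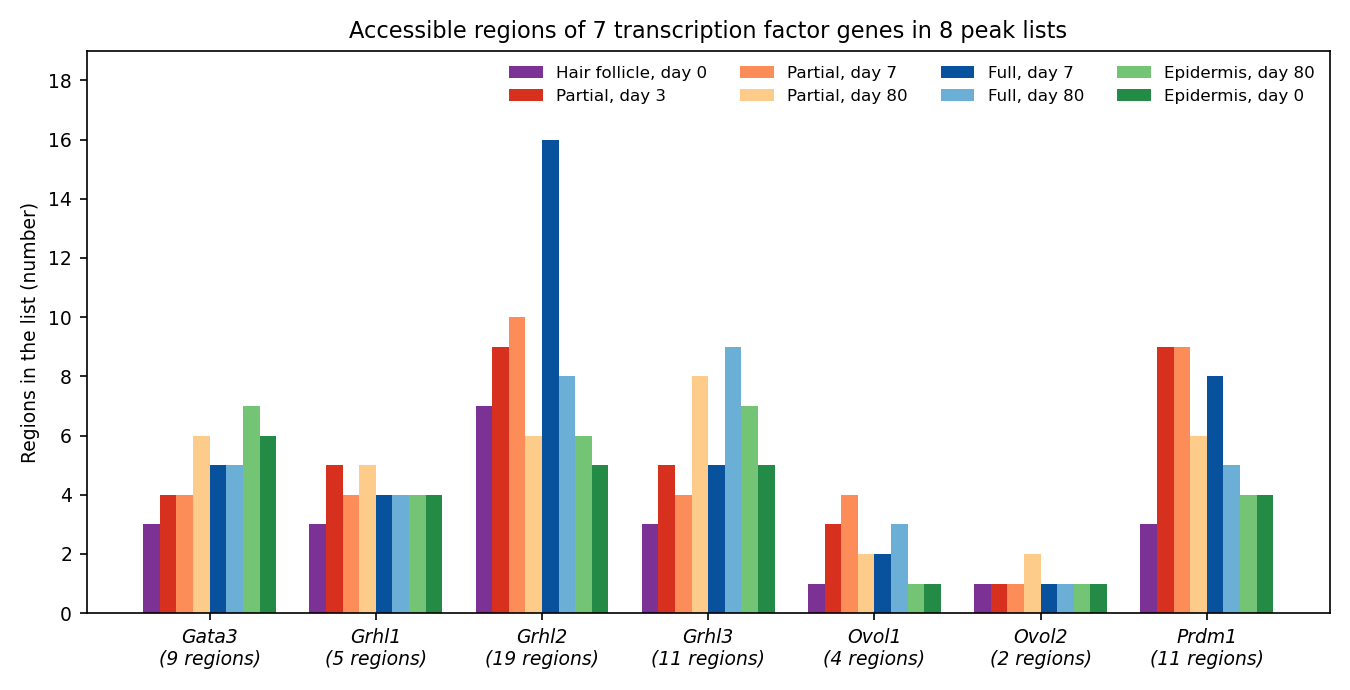
Bars give the number of regions of each gene (horizontal axis) in each of the 8 lists (colours, in the order of the legend). Grhl2 reached 16 regions in the day 7 full-thickness list, Prdm1 8 or 9 in the 3 early wound lists, and Grhl3 8 and 9 in the day 80 wound lists, while Grhl1 and Ovol2 varied by at most 2.

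Between the 2 unwounded populations at day 0, the hair follicle list had 7 regions without a peak in the day 0 epidermal list (11.5%, interval 4.74 to 22.2%, against 15.8% of all regions). These were 4 of Grhl2 and 1 each of Gata3, Grhl3 and Prdm1. In the other direction the day 0 epidermal list had 12 regions without a hair follicle peak (19.7%, interval 10.6 to 31.8%, against 18.2%). These were 4 of Gata3, 3 of Grhl3, 2 each of Grhl2 and Prdm1, and 1 of Grhl1. Both intervals include the share of all regions. Gata3 thus had 3 hair follicle regions and 6 day 0 epidermal ones, and Grhl2 had 7 hair follicle regions and 5 day 0 epidermal ones.

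Gata3 lies on chromosome 2 at 9857078 to 9887953 and had 3 regions for the hair follicle, 4, 4 and 6 on days 3, 7 and 80 of the partial wound, 5 on each day of the full wound, and 7 and 6 in unwounded epidermis of days 80 and 0. Region 4 was in all 8 lists, with percentiles of 52.1 to 94.4, and so was region 8 at the RefSeq start, with 33.5 to 88.4. A score percentile is the share of a list's own peaks that score no higher, from the authors' scores, and it ranks a peak only within that list. Region 9, chr2:9888728-9890043, lay 775 bp beyond the upper end of the gene, its 5′ end on the minus strand. It had no hair follicle peak and percentiles of 46.6, 57.0 and 69.5 on days 3, 7 and 80 of the partial wound, 70.6 and 67.6 on days 7 and 80 of the full wound, and 69.4 and 72.4 in unwounded epidermis of days 80 and 0. Region 2, 28833 bp below the gene, likewise lacked a peak in the hair follicle list alone. Both were thus present by day 3 in the progeny of hair follicle cells.

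Region 5 of Gata3, chr2:9859857-9860934 inside the gene, followed another course. It had no peak in the hair follicle, on days 3 and 7 of the partial wound or on day 7 of the full wound. Its percentiles were 75.6 on day 80 of the partial wound, 19.4 on day 80 of the full wound, and 34.0 and 81.2 in unwounded epidermis of days 80 and 0. Its deposited fold enrichments over the local background were 11.0, 6.31, 4.66 and 10.9 in those lists. Region 1, 30916 bp below the gene, was in the day 80 partial-thickness list and both epidermal lists. Region 3, 23048 bp below the gene, was the 1 region of Gata3 seen in the hair follicle list alone, at the 49.2 percentile. A region 51404 bp from Gata3, in all 8 lists, lay just outside the 50 kb limit.

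Of the 12 regions present in day 0 epidermis and absent from the hair follicle, the partial-thickness lists held 6 at day 3 (50%, all regions of the class 46%), 7 at day 7 (58.3%, all 53%) and 11 at day 80 (91.7%, all 72.4%). The share was higher at day 80 than at days 3 and 7 over the whole class too, and at days 3 and 7 the 7 genes were near it. The full-thickness lists held 9 at day 7 (75.0%, all 54.6%) and 10 at day 80 (83.3%, all 71.1%), and the day 80 epidermal list held 11 (91.7%, all 71.6%). Grhl3 region 2 was counted as held by the day 80 full-thickness and epidermal lists, although neither peak there overlapped its day 0 epidermal peak. The 1 region missing from the day 80 partial-thickness list was Grhl2 region 12. Of the 7 present in the hair follicle and absent from day 0 epidermis, the partial-thickness lists held 2 at day 3 (28.6%, all regions of the class 38.4%), 3 at day 7 (42.9%, all 37.1%) and 1 at day 80 (14.3%, all 22.7%). The full-thickness lists held 3 at day 7 (42.9%, all 27.4%) and 3 at day 80 (42.9%, all 19.6%), and the day 80 epidermal list held 1 (14.3%, all 19.4%). The region held on day 80 of the partial wound was Grhl3 region 9, which was also in the day 80 full-thickness and day 80 epidermal lists.

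The partial-thickness lists of days 3 and 7 held added regions at 5 of the 7 genes. Regions in the day 3 or day 7 partial-thickness list and in neither day 0 list, called wound-gained here, numbered 17 (27.9%, interval 17.1 to 40.8%, against 19.7% of all regions). They were 6 of the 19 regions of Grhl2, 5 of the 11 of Prdm1, 3 of the 4 of Ovol1, 2 of the 11 of Grhl3 and 1 of the 5 of Grhl1, while Gata3 and Ovol2 had none. With every list cut to the length of the shortest by score, 10 remained as a count (19.2% of 52 regions, against 14.9% of all regions so cut): 4 of Prdm1, 3 of Grhl2, 2 of Ovol1 and 1 of Grhl1. The day 7 full-thickness list held 10 of the 17 (58.8%, against 62.6% of all wound-gained regions).

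**Figure D3:**
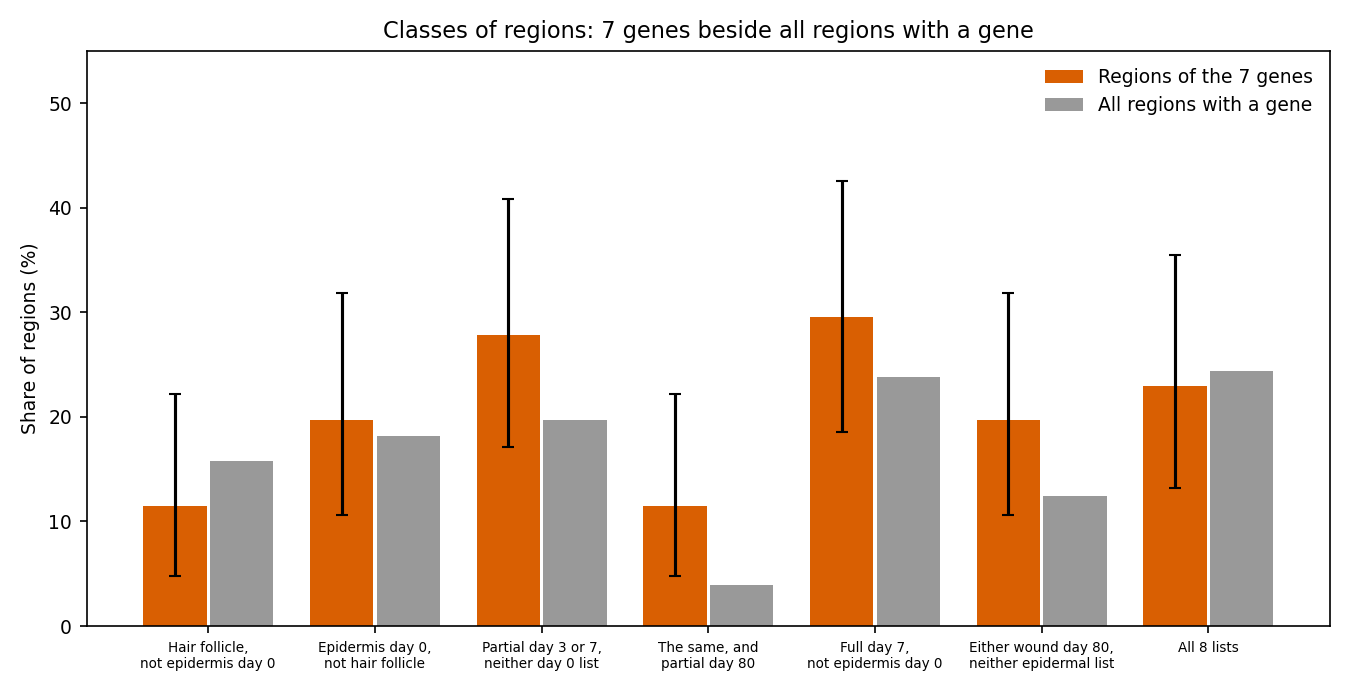
Bars give the share of regions (%) in each class for the 61 regions of the 7 genes, with exact 95% intervals from counting error, and for all 52791 regions with a gene. The interval includes the share of all regions in 6 of the 7 classes shown, such as 27.9% beside 19.7% for regions in an early partial-thickness list and neither day 0 list. It lies above that share for those of them also in the day 80 partial-thickness list, 11.5% beside 3.96%.

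Prdm1, on chromosome 10 at 44437174 to 44528558, had 3 regions for the hair follicle, 9, 9 and 6 on days 3, 7 and 80 of the partial wound, 8 and 5 on days 7 and 80 of the full wound, and 4 in each epidermal list. Its early wound lists thus held more of its regions than any unwounded list. Region 6, at the RefSeq promoter printed above, and region 9, chr10:44528510-44530296 at the upper end of the gene, were in all 8 lists, region 9 at percentiles of 72.5 to 91.7.

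Region 7 of Prdm1, chr10:44518297-44519336, lay inside the gene 9222 bp from its upper end, and was present in each of the 5 wound lists but absent without a wound. Its percentiles were 74.2, 52.0 and 55.1 on days 3, 7 and 80 of the partial wound, and 65.3 and 3.3 on days 7 and 80 of the full wound. Its deposited fold enrichments were 11.9, 12.9 and 12.1 after the partial-thickness wound and 11.9 and 5.67 after the full-thickness wound. The peak of the day 80 full-thickness list was thus near the bottom of that list, and it was absent once lists were cut to equal length, while the other 4 remained. Region 11, 45647 bp above the gene, was in the 3 partial-thickness lists (percentiles 72.0, 38.5 and 2.4 at days 3, 7 and 80) and the day 7 full-thickness list (20.0). Region 10, 36114 bp above the gene, was in the day 3 (0.4) and day 7 (48.7) partial-thickness lists and the day 7 full-thickness list (52.6). Region 2 was in the day 3 partial-thickness list alone (6.2), and region 8 in those of day 3 (20.6) and day 7 (5.9). With lists of equal length region 2, the day 3 peak of region 10 and the day 7 peak of region 8 were lost. Region 11 then lost its day 80 partial-thickness and day 7 full-thickness peaks, and those of days 3 and 7 of the partial wound remained. Region 5 was in the day 7 full-thickness list alone, at the 52.3 percentile.

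Region 4 of Prdm1, chr10:44446674-44448210 inside the gene, was in the hair follicle list (percentile 22.9) and in the partial wound on day 3 (56.8) and day 7 (42.8), and in none of the other 5 lists. Region 1, 26572 bp below the gene, was in every list but that of the hair follicle, and region 3, 8607 bp below it, was missing from the hair follicle and day 3 partial-thickness lists. Its day 7 partial-thickness peak stood at the 2.1 percentile, beside 58.8 on day 80 of the same wound and 55.6 in day 0 epidermis.

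**Figure D4:**
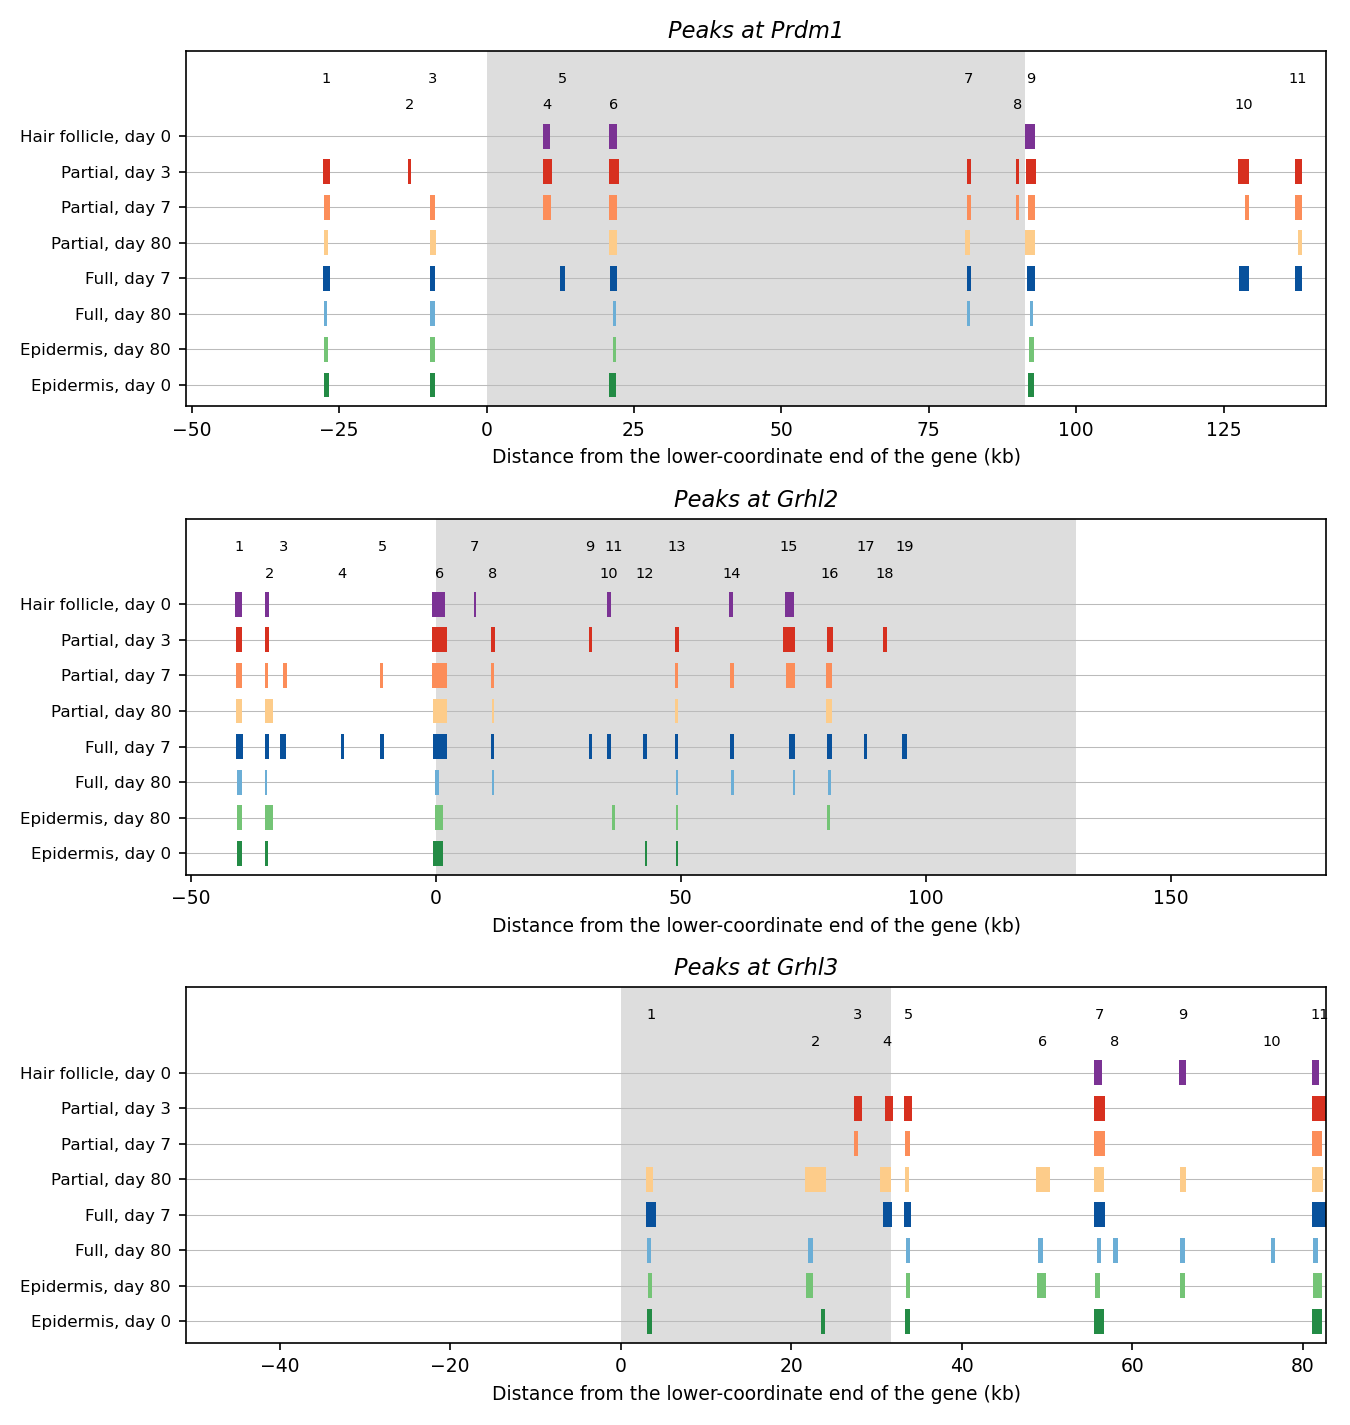
Peaks at Prdm1, Grhl2 and Grhl3 in the 8 lists (rows), drawn by distance in kb from the lower-coordinate end of the gene, with the gene shaded and region numbers above. Bars are peaks, drawn at least 0.5 kb wide. Prdm1 region 7 and Grhl2 region 8 are in the 5 wound rows alone, and the peak at the upper end of Grhl3 (region 4) is in 3 wound rows.

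Grhl2, on chromosome 15 at 37232821 to 37363569, showed its widest set of regions at day 7 of the full-thickness wound. It had 7 regions for the hair follicle, 9, 10 and 6 on days 3, 7 and 80 of the partial wound, 16 and 8 on days 7 and 80 of the full wound, and 6 and 5 in unwounded epidermis of days 80 and 0. Of all 18 regions of the 7 genes in the day 7 full-thickness list and not in the day 0 epidermal list (29.5%, interval 18.5 to 42.6%, against 23.8% of all regions), 11 were of Grhl2. With lists cut to equal length Grhl2 had 13 regions in the day 7 full-thickness list and 5 to 7 in each of the others. Regions 4, 17 and 19 were in the day 7 full-thickness list alone, at percentiles of 11.1, 36.9 and 16.6.

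Grhl2 region 8, chr15:37244039-37244895 inside the gene, was the other region of the 7 genes found in the 5 wound lists alone. Its percentiles were 50.8, 37.1 and 28.6 on days 3, 7 and 80 of the partial wound, and 38.8 and 16.3 on days 7 and 80 of the full wound, and all 5 peaks remained in lists of equal length. The share of all regions found in the 5 wound lists alone was not counted. Region 16, chr15:37312484-37313876, was in the 5 wound lists and the day 80 epidermal list (percentile 48.9) and had no peak in the hair follicle or day 0 epidermal list. Its highest percentiles were 80.5 on day 7 of the full wound and 73.8 on day 80 of the partial wound. Region 13, chr15:37281616-37282383, lacked a peak in the hair follicle list alone and stood at 70.7 to 94.5 elsewhere.

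Some Grhl2 regions were held by the hair follicle list and not by either epidermal list. Region 15 was in the hair follicle list (percentile 68.1), the partial-thickness lists of day 3 (7.3) and day 7 (38.5), and the full-thickness lists of day 7 (58.1) and day 80 (22.3). The summit of its hair follicle peak lay 495 to 576 bp below those of the 4 wound lists. Region 14 was in the hair follicle, day 7 partial-thickness and both full-thickness lists, region 10 in the hair follicle and day 7 full-thickness lists, and region 7 in the hair follicle list alone. The day 80 full-thickness peak of region 14 stood at the 3.3 percentile and its day 7 partial-thickness peak at 12.4. Both were lost with lists of equal length, as was the day 3 partial-thickness peak of region 15. Over all hair follicle regions absent from day 0 epidermis, as given above, 27.4% were in the day 7 and 19.6% in the day 80 full-thickness list. Region 6, at the lower end of the gene, and regions 1 and 2 below it were in all 8 lists.

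Grhl3, on chromosome 4 at 135541887 to 135573632, had the most regions in day 80 lists. It had 3 regions for the hair follicle, 5, 4 and 8 on days 3, 7 and 80 of the partial wound, 5 and 9 on days 7 and 80 of the full wound, and 7 and 5 in unwounded epidermis of days 80 and 0. Region 6, chr4:135590589-135592217, was in the day 80 partial-thickness (percentile 45.5), day 80 full-thickness (22.3) and day 80 epidermal (25.8) lists and in none of an earlier day. Regions 8 and 10 were in the day 80 full-thickness list alone at percentiles of 5.1 and 3.8, and both were lost with lists of equal length. The lowest −log10 p kept in that list was 7.98, the second lowest of the 8 lists.

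The region over the RefSeq start of Grhl3 was list dependent. Region 4, chr4:135572348-135573777, overlaps 145 of the 250 upstream bases printed above, and had peaks in the day 3 and day 80 partial-thickness lists and the day 7 full-thickness list. Their percentiles were 14.4 and 48.9 on days 3 and 80 of the partial wound and 15.7 on day 7 of the full wound, with fold enrichments of 3.50, 4.74 and 3.32. No unwounded list had a peak there, and with lists of equal length the day 80 partial-thickness peak was the 1 left. The printed stretch begins at 135573633 in coordinates. The day 3 partial-thickness peak ended at 135573777, the day 7 full-thickness peak at 135573709 and the day 80 partial-thickness peak at 135573640. Their summits lay inside the gene, at 135573222 to 135573225. Region 5, chr4:135575148-135576044 and 1516 bp above the gene, was in 7 lists, all but the hair follicle list, at percentiles of 24.4 to 65.6.

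Summits of Grhl3 peaks also differed in place within a region. In region 7, chr4:135597349-135598679, present in all 8 lists, summits lay within 88 bp of the lowest one in 5 lists. In the 3 early wound lists they lay 770 bp (day 3 partial-thickness), 693 bp (day 7 partial-thickness) and 776 bp (day 7 full-thickness) from it. Region 2 was the 1 of 47 regions in more than 1 list in which peaks of some lists did not overlap each other: the day 0 epidermal peak overlapped neither the day 80 full-thickness nor the day 80 epidermal peak. Merging had joined them through the wide peak of the day 80 partial-thickness list. Region 11, in all 8 lists at percentiles of 76.8 to 96.6, lay 49271 bp from the gene, just inside the 50 kb limit.

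Grhl1, on chromosome 12 at 24572232 to 24617391, varied little. It had 3 regions for the hair follicle, 5, 4 and 5 on days 3, 7 and 80 of the partial wound, and 4 in each of the full-thickness and epidermal lists. Region 2, over the first RefSeq start, stood at percentiles of 82.0 to 97.5 in the 8 lists. Region 1, 5484 bp below the gene, was missing from the hair follicle list alone, and region 3 was in the partial wound on day 3 (percentile 24.3) and day 80 (0.3).

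Ovol1, on chromosome 19 at 5549137 to 5560575, had 1 region in every unwounded list, region 4, which overlaps the neighbouring gene Ap5b1 as well and cannot be told apart from it. It had 1 region for the hair follicle, 3, 4 and 2 on days 3, 7 and 80 of the partial wound, 2 and 3 on days 7 and 80 of the full wound, and 1 in each epidermal list. The other 3 were in wound lists alone. Region 1, chr19:5538182-5539361, was in the day 3 (percentile 35.7) and day 7 (43.1) partial-thickness lists and the day 7 (38.1) and day 80 (22.3) full-thickness lists. Region 3, chr19:5553639-5555257 inside the gene, was in the day 7 (15.2) and day 80 (26.4) partial-thickness lists and the day 80 full-thickness list (33.8). Region 2 was in the day 3 and day 7 partial-thickness lists at percentiles of 14.1 and 19.9.

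Ovol2, on chromosome 2 at 144305175 to 144332080, had region 2 over its RefSeq start in all 8 lists. The day 80 full-thickness peak of region 2 stood at the 11.6 percentile and was lost with lists of equal length. Region 1, inside the gene, was in the day 80 partial-thickness list alone, at the 27.0 percentile. Within region 2 each list had 1 peak, and the summits formed 2 sites, both inside the peak of every list. Those of the day 80 full-thickness and both epidermal lists lay 0 to 221 bp from the lowest summit, and those of the hair follicle list, the partial-thickness lists and the day 7 full-thickness list 1225 to 1282 bp from it.

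At day 80 the partial-thickness list held 7 of the 17 wound-gained regions (41.2%, against 20.1% of all wound-gained regions). As a share of the 61 regions this was 11.5% (interval 4.74 to 22.2%), against 3.96% of all regions. They were Prdm1 regions 7 and 11, Grhl2 regions 8 and 16, Grhl1 region 3, Grhl3 region 4 and Ovol1 region 3. Grhl1 region 3 and Prdm1 region 11 were at percentiles of 0.3 and 2.4 there, and with lists of equal length the count was 3 (5.77% of 52 regions, against 2.85% of all regions so cut). The day 80 full-thickness list held 5 of the 17 (29.4%, against 22%) and the day 80 epidermal list 1, Grhl2 region 16 (5.88%, against 10.6%).

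Either day 80 wound list, and neither epidermal list, held 12 regions (19.7%, interval 10.6 to 31.8%, against 12.4% of all regions): 3 each of Grhl2 and Grhl3, 2 each of Ovol1 and Prdm1, and 1 each of Grhl1 and Ovol2. With lists of equal length there were 7. Against the day 80 epidermal list, the day 80 partial-thickness list had 7 regions more (11.5%, all regions 11%) and lacked 2 (3.28%, all regions 8.04%), Gata3 region 7 and Grhl2 region 11. The day 80 full-thickness list had 8 more (13.1%, all regions 10.7%) and lacked 3 (4.92%, all regions 9.14%). Within unwounded epidermis, the day 80 list had 5 regions that the day 0 list lacked (8.20%, all regions 9.34%), 2 each of Grhl2 and Grhl3 and 1 of Gata3, and lacked 1, Grhl2 region 12 (1.64%, all regions 7.02%).

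Against the cells of origin, the day 3 partial-thickness list had 20 regions that the hair follicle list lacked (32.8%, interval 21.3 to 46.0%, against 24.7% of all regions), namely 6 of the 11 regions of Prdm1, 5 of the 19 of Grhl2, 3 of the 11 of Grhl3, 2 of the 9 of Gata3, 2 of the 5 of Grhl1 and 2 of the 4 of Ovol1. It lacked 5 that the hair follicle list had (8.20%, against 12.4%). At day 7 the partial-thickness list had 5 regions that the full-thickness list lacked (8.20%, against 9.66%), 2 each of Ovol1 and Prdm1 and 1 of Grhl3. The full-thickness list had 10 that the partial-thickness list lacked (16.4%, against 14.1%), 6 of them of Grhl2. Over all times, 24 of the 61 regions were in a wound list and in no unwounded list (39.3%, interval 27.1 to 52.7%, against 28.8%): 8 of Grhl2, 6 of Prdm1, 4 of Grhl3, 3 of Ovol1, and 1 each of Gata3, Grhl1 and Ovol2.

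Other gene lists gave a background for these counts. A list of 20 other epidermal transcription factors had 197 regions, of which 42 (21.3%, against 19.7% of all regions) were wound-gained. Of the 197, 35 were present in the hair follicle and absent from day 0 epidermis, a class with 15.8% of all regions. The reverse class held 40, beside 18.2% of all regions. Rora, a nuclear receptor, had 39 regions with 8 wound-gained, Trp63, which encodes the master regulator p63 of stratified epithelia, had 22 with 10, and Barx2, a homeobox gene, had 16 with 2. Of 12 relatives of the 7 genes, 10 had regions, 27 in all, of which 8 (29.6%) were wound-gained. Gata6 and Prdm2 had 5 regions each, with 1 wound-gained in each. A further list held 17 genes, namely epithelial and barrier genes and others such as Zeb1, Zeb2, Vim and Myc. Among them were targets of GRHL and OVOL factors. Of the 17, 16 had a total of 81 regions and 15 (18.5%) were wound-gained. Cdh1, which encodes E-cadherin, had 14 regions with 3 wound-gained, Tgm3, a barrier transglutaminase, 15 with 3, and Myc, a proliferation gene that PRDM1 and OVOL1 repress, 10 with 2.

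The genes most like each member, by Pearson r of region counts over the 8 lists among 1870 genes, were given as a description, since lengths of the lists enter every count. For Gata3 they were Tekt3 (r = 0.953), Bmp4 (0.94) and Olfml2a (0.938), for Grhl2 Ppfibp1 (0.989), Serinc2 (0.982) and Akap13 (0.98), for Grhl3 Cnst (0.962), Foxk1 (0.936) and Abhd12b (0.927), and for Prdm1 Eed (0.984), Tnfrsf21 (0.98) and Macrod1 (0.965). Bmp4 had 0 regions for the hair follicle, 1, 2 and 6 on days 3, 7 and 80 of the partial wound, 2 and 5 on days 7 and 80 of the full wound, and 7 and 6 in unwounded epidermis of days 80 and 0. Akap13 had 20 in the day 7 full-thickness list and 9 to 14 in the others. The counts of Grhl1, Ovol1 and Ovol2 ranged by less than 4 and were not compared.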

How the data were processed

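Skin was digested with trypsin and cells sorted by FACS before transposition and PCR, per the labels' protocols. Bowtie, Picard, MACS2 2.1.1.20160309, bedtools 2.29.2 and mm10 are named without roles, per the submitters' processing notes. The sources used here do not say whether samples were pooled for peak calling. The deposited lists, 1 per group, give per peak the authors' score, a fold enrichment over local background (a ratio) and a −log10 p. The deposited score and fold were used only to describe or rank peaks within their own list. Read depth is unknown. The 2 epidermal lists are deposited as controls of day 0 and day 80 and were taken as epidermal because the hair follicle has a list of its own. Gaps in the peak numbers show that 32.8% to 82.5% of the calls of a list were kept.

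All 267990 peaks were merged into 63188 regions where they overlapped or touched. Regions went to the nearest of 21900 protein-coding genes of RefSeq GRCm38.p6 within 50 kb. Ties counted for each gene, which left 52791 regions (83.5%) with 15667 genes. Exons and introns were not analysed, since the table lists gene ends alone. Presence of a list meant an overlapping peak. Code was checked on made-up peaks (Python 3.11.15, pandas 2.3.3, scipy 1.17.1). All 7 genes were named, with the 3 genes of each list that had most regions differing between the hair follicle and day 0 epidermal lists or wound-gained, and the 3 most similar genes of each member whose counts ranged by 4 or more (among genes with 5 or more regions and such a range). A gene that this rule names is not reported here. The members, gene lists and alternatives were chosen with earlier results of these data known. Alternatives were windows of 10 kb and 100 kb, peaks covering 50% of a region, lists of equal length, and the upper 50% of peaks by score, and, chosen after seeing the data, every region within 50 kb and the day 80 epidermal list for day 0.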

Additional observations from a re-analysis of the deposited data

Results flagged for a closer look

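Ovol1, which encodes a zinc finger repressor, changed its number of regions between day 7 and day 80 in opposite directions after the 2 wounds. The day 80 minus day 7 difference was -2 in the partial-thickness lists, with 2 regions at day 80 and 4 at day 7. It was 1 in the full-thickness lists, with 3 regions at day 80 and 2 at day 7. With lists of equal length it was -1 in the partial-thickness lists, with 2 regions at day 80 and 3 at day 7, and 1 in the full-thickness lists. With 1 list per group the difference between the wounds was not tested.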

How the results depend on the processing

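Of 65 values under 7 alternatives for 10 counts, 48 were within 1.5 times the reported count and 17 were not. With the upper 50% of peaks by score, all regions numbered 35, regions in all lists 7, hair follicle without day 0 epidermis 3, day 80 without day 0 epidermis 3, wound-gained 9, wound-gained and in the day 80 partial-thickness list 3, day 7 full-thickness without day 0 epidermis 9, and either day 80 wound list without an epidermal list 7. With lists of equal length, wound-gained regions numbered 10, those also in the day 80 partial-thickness list 3, and those of either day 80 wound list 7. With a 10 kb window, regions in all lists numbered 9 and day 80 without day 0 epidermis 3. With peaks covering 50% of a region, 3 regions were in all lists and 0 wound-gained regions in the day 80 epidermal list. Counting every region within 50 kb, 23 were in all lists and 8 in the day 80 epidermal list without day 0. Windows of 100 kb and the day 80 epidermal list for day 0 moved no count beyond 1.5 times. Shorter lists hold fewer peaks by construction. In the same way a 10 kb window can only remove regions, and counting every region within 50 kb can only add them. Requiring peaks to cover 50% of a region can only lower the count in all lists. The cause of the other moves was not tested. Presence near the bottom of a list depends on a floor that differs between lists, and depth is unknown. No paired analysis was possible because each group has 1 list and no list carries a replicate number. Leaving out a replicate was not possible for the same reason.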
